A study of Arabidopsis thaliana with 2 samples.

Results

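The genes described here are 10 Arabidopsis loci of alternative mitochondrial respiration, out of 23667 loci with reads in the study. They were listed by locus identifier, with no threshold on their values but with earlier results of these data known: the alternative oxidases AOX1A (AT3G22370), AOX1B (AT3G22360), AOX1C (AT3G27620), AOX1D (AT1G32350) and AOX2 (AT5G64210), the NAD(P)H dehydrogenases NDA1 (AT1G07180), NDA2 (AT2G29990), NDB2 (AT4G05020) and NDB4 (AT2G20800), and the oxidative stress marker UPOX (AT2G21640). RNA-seq was made from whole seedlings grown for 12 days in long days at 20 °C on plates without treatment. There was 1 library labelled FMO5-OE T1, read as overexpression of the flavin-containing monooxygenase gene FMO GS-OX5 in the Col-0 background, and 1 library of wild-type Col-0, the standard laboratory accession. The sources used here do not give the promoter of the transgene, the lines or plants in a library or the meaning of T1. Genotype cannot be told apart from any other difference between the 2 collections of seedlings.

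In plant mitochondria, the cytochrome pathway carries electrons from complex I or II through ubiquinol, complex III, cytochrome c and complex IV to oxygen, and pumps protons on the way. Alternative oxidase takes electrons from ubiquinol straight to oxygen and pumps none. The type II NAD(P)H dehydrogenases feed electrons into ubiquinone without complex I. NDA enzymes face the matrix and NDB enzymes the intermembrane space. AOX1A is the main stress-responsive oxidase of Arabidopsis leaves and NDB2 is known to be co-expressed with it. When mitochondrial electron flow is blocked, the membrane-bound factors ANAC013 and ANAC017 bind a sequence called the mitochondrial dysfunction motif in front of genes such as AOX1A and UPOX.

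The sequences at this motif are shown because they are the places where the letters of that element occur near the starts of the 10 genes. The motif was searched on both strands as CTTG, 5 bases of any kind, CA, any base and G. Letting any base stand before the last G can make this pattern broader than the motif itself. All shares of genes given here are therefore those of the pattern. The window was the 250 bases before each annotated gene start of TAIR10.1. In it 4 of the 10 genes held a match, against 1.75% of 27443 protein-coding genes. Since the motif is known from members such as AOX1A and UPOX, no enrichment is read from this. The pattern matched on both strands at NDA1, NDB2 and UPOX and on the minus strand alone at AOX1B. Capitals mark the match of 13 bases in the lines that follow, all from the plus strand of the RefSeq genome.
NDA1, chr1:2204019-2204061: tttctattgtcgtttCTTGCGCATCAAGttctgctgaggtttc
NDB2, chr4:2572333-2572375: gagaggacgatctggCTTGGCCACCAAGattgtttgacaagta
UPOX, chr2:9254312-9254354: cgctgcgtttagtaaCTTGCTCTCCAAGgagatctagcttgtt
AOX1B, chr3:7903964-7904006: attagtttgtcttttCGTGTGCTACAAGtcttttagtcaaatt
AOX1A, chr3:7906539-7906563: ttccatCTTGCTCTCCAAGaaaaat

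AOX1A had no match before its annotated start but held 1 inside the first 300 bases after it, at bases 25 to 37, a window chosen after the first result was seen. Its CTTGCTCTCCAAG has the same 13 letters as the match of UPOX. Of all 27443 genes, 2.77% held a match in that window, and no other member did. In 1000 bases before the start, also chosen after the first result, the same 4 members held a match, NDB2 a second at 652 bases, and the share of all genes was 7.60%. The G-box CACGTG, which reads the same on both strands, was found in front of AOX2 at 2 places and UPOX at 1, that is in 2 of 10 members against 6.49% of all genes. The matches are letters in a window and were not tested for binding. The annotated transcripts are 5 to 381 bases longer than the deposited models, so that starts may differ between the annotations.

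**Figure D1:**
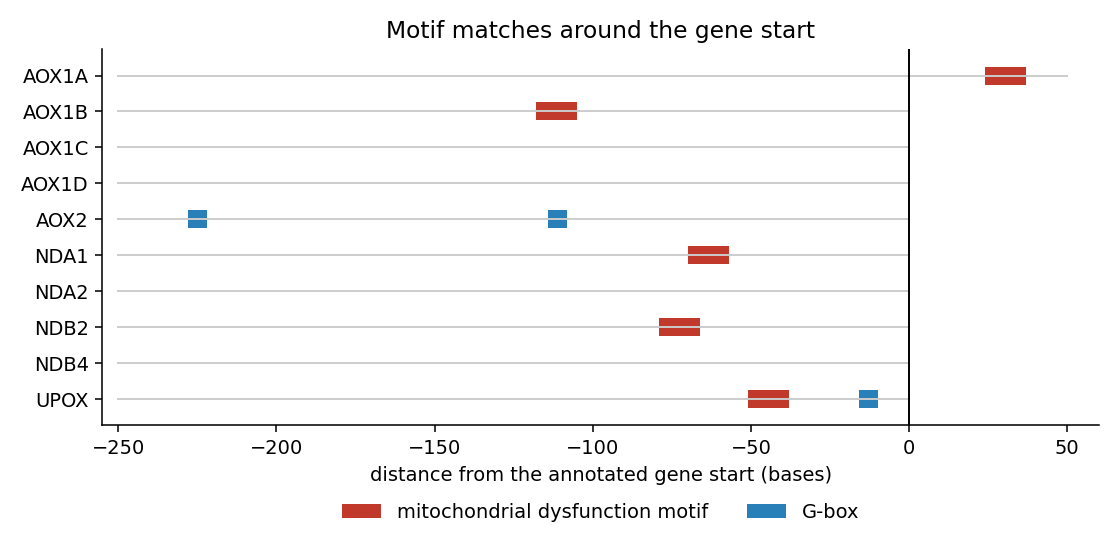
Position of matches to the mitochondrial dysfunction motif (red bars) and the G-box (blue bars) relative to the annotated gene start (0, vertical line) for the 10 genes, in bases, over the 250 bases before the start and, for AOX1A alone, 50 bases after it. The mitochondrial dysfunction motif lies at 118 to 106 bases before AOX1B, 79 to 67 before NDB2, 70 to 58 before NDA1 and 51 to 39 before UPOX, and at 25 to 37 inside AOX1A.

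Total counts were 12.2 M reads in FMO5-OE and 11.6 M in Col-0, and chloroplast transcripts took 1.91% and 2.37% of them. FMO GS-OX5 had 1379 reads in FMO5-OE and 28 in Col-0, a ratio of 43.6 (30.1 to 65.9), over 8.15% and 6.48% of its model. Markers of green tissue and root had reads in both libraries. RBCS1A of the leaf carbon-fixing enzyme stood at 1185 CPM in FMO5-OE and 1481 in Col-0. Its most-read model was covered over 10.05% in each library. The light-harvesting gene LHCB1.1 had 7202 and 8029 CPM. Of the root markers, the beta-glucosidase PYK10 had 5813 and 5341 CPM, and the nitrate transporter NRT2.1 only 2.77 and 2.95. Of the 4 markers of seed storage and anther tapetum, 0 reached 1 CPM. CPM are counts relative to the scaled library total after scaling of the library totals. With 1 library per genotype there is no test, and intervals cover counting error at 95% only. The libraries are bulk samples, in which fewer cells of a type and less RNA per cell cannot be told apart.

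The 3 alternative respiration genes at 5 CPM or more, AOX1A, NDA1 and NDA2, had ratios between 0.925 and 1.11. For the others the counts were too low to show whether the libraries differed, and those of NDB2 came from a short stretch of its model. Reads were found for 9 of the 10 genes in FMO5-OE and for 10 in Col-0, but only 5 reached 1 CPM and 3 reached 5 CPM in either library. None of those 3, AOX1A, NDA1 and NDA2, was at least 2-fold apart by the rule used here, a log2 ratio of CPM + 1 of 1 or more in size with the higher library at 5 CPM. By that rule 1.08% of 13019 nuclear loci were apart, 0.737% higher and 0.346% lower in FMO5-OE, so a count of 0 of 3 is near the background. The split over all loci was 96 higher and 45 lower, and 136 and 31 with uncorrected totals. Summed over the 10 genes there were 2845 reads in FMO5-OE and 2662 in Col-0, or 225 and 238 CPM. The ratio was 0.947 (0.898 to 0.999) and turned to 1.01 when the totals were not corrected. The same change of scaling moved the median log2 ratio of all loci from -0.01 to 0.08.

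The alternative oxidases were represented almost wholly by AOX1A. It had 499 reads in FMO5-OE and 427 in Col-0, or 39.5 and 38.2 CPM, a ratio of 1.04 (0.908 to 1.18). Its log2 ratio of 0.05 was smaller in size than that of most loci: 16% of loci at 5 CPM or more lay closer to 0. Reads covered 95.5% of its 1488 bases in FMO5-OE and 96.4% in Col-0. AOX1A made up 94.7% of all AOX reads in FMO5-OE (exact interval 92.4% to 96.4%) and 92.4% in Col-0 (89.6% to 94.7%). These intervals overlap.

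AOX1D, another isoform of the AOX1 group, was the next oxidase in both libraries. It had 21 reads in FMO5-OE and 32 in Col-0, or 1.66 and 2.86 CPM. The ratio of 0.582 had a counting interval of 0.319 to 1.04, which reaches past 1, so no difference was detectable at this depth. Per length, AOX1A exceeded AOX1D 21.4-fold (13.8 to 34.8) in FMO5-OE and 12.0-fold (8.37 to 17.8) in Col-0, on the scale of RPKM, which divides reads by model length and library total.

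The remaining oxidases were close to the limit of detection. AOX1C had 6 reads in FMO5-OE and 1 in Col-0, a ratio of 5.32 whose interval ran from 0.645 to 245. AOX2, whose transcript is known from seeds, had 1 read in each library. AOX1B, whose expression the RefSeq annotation places in flowers and their buds only, had 0 reads in FMO5-OE and 1 in Col-0. At these depths 3 reads, the limit that a count of 0 allows, stand for 0.238 CPM in FMO5-OE and 0.268 CPM in Col-0. AOX1B lies 944 bases before AOX1A on the same strand of chromosome 3, AOX1B at chr3:7904097-7905576 and AOX1A at chr3:7906521-7908746. The neighbours thus stood far apart, AOX1B with at most 1 read, as for AOX2, and AOX1A with 427 or more. No stretch of 49 bases, the read length, of any of the 10 transcripts was found elsewhere in the genome, so reads of AOX1A and AOX1B can be told apart. Summed over the 5 genes, AOX stood at 41.8 CPM in FMO5-OE and 41.3 in Col-0, a ratio of 1.01 (0.890 to 1.15).

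**Figure D2:**
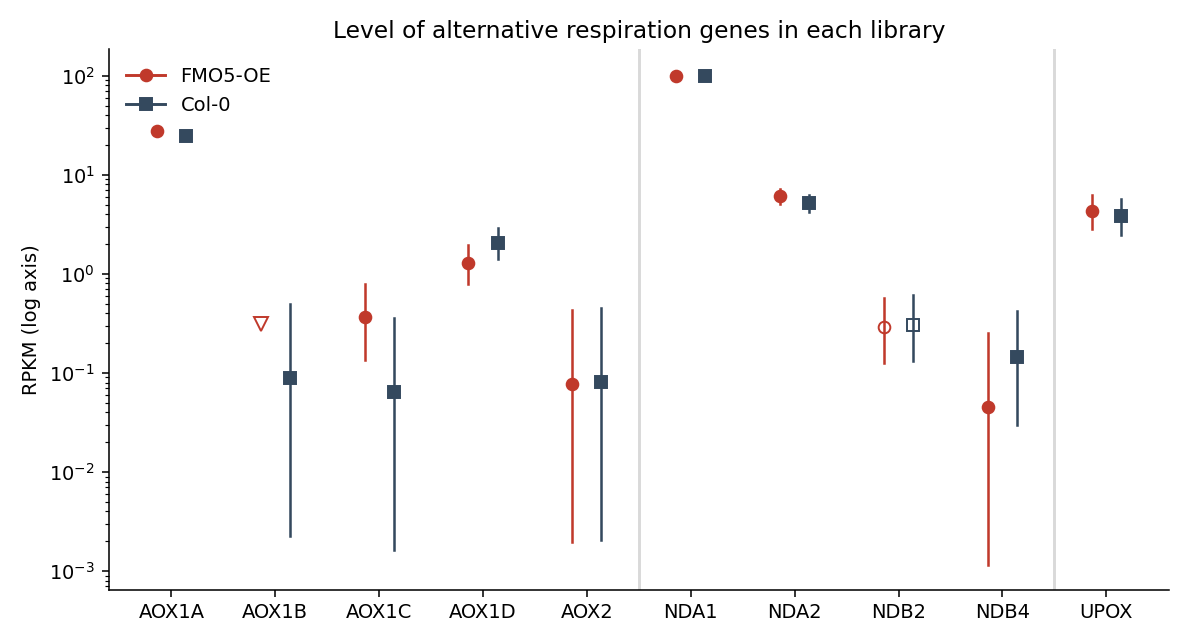
Level of each gene in RPKM (log axis) in FMO5-OE (circles) and Col-0 (squares), with exact 95% Poisson counting intervals (vertical lines). The open triangle is the upper bound for AOX1B in FMO5-OE, which had 0 reads, and open symbols mark NDB2, whose reads come from a small part of the transcript. NDA1 is highest at 98.6 RPKM in FMO5-OE and 99.7 in Col-0, AOX1A follows at 27.5 and 24.8, and symbols of the 2 libraries lie side by side.

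Among the dehydrogenases, NDA1 stood far above NDA2, the other internal enzyme, and held most of the counted reads of the family. NDA1, a matrix-facing enzyme whose transcript is known to respond to light, had 2151 reads in FMO5-OE and 2061 in Col-0. These correspond to 170 and 184 CPM, with a ratio of 0.925 (0.870 to 0.983). The interval lies below 1, but the log2 ratio of -0.11 is well inside the interquartile range of all loci, -0.17 to 0.16. With uncorrected totals the log2 ratio was -0.017, and the median of all loci moved from -0.01 to 0.08. The gene lies at chr1:2204104-2207099 and 97.6% and 98.7% of its model were covered in FMO5-OE and Col-0. It held 75.6% of the counted reads of all 10 genes in FMO5-OE and 77.4% in Col-0. These shares count NDB2 by the reads on a short stretch of its model, so NDA1 and NDB2 are not ranked.

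NDA2, its matrix-facing paralogue, was far lower. It had 130 reads in FMO5-OE and 104 in Col-0, or 10.3 and 9.30 CPM, a ratio of 1.11 (0.849 to 1.45) that spans 1. Per length, NDA1 exceeded NDA2 16.2-fold (13.6 to 19.5) in FMO5-OE and 19.4-fold (15.9 to 23.8) in Col-0. The intervals overlap, and the order of levels per length, NDA1 above AOX1A above NDA2, was the same in both libraries. NDA1 exceeded AOX1A 3.59-fold (3.25 to 3.96) per length in FMO5-OE and 4.02-fold (3.62 to 4.47) in Col-0.

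NDB2, the external calcium-dependent NADH dehydrogenase, had reads over only a short stretch of its model. It had 8 reads in each library, but these covered 3.28% of its model in FMO5-OE and 3.82% in Col-0, or 73.9 and 86.1 bases. Models of 2000 to 2500 bases with 8 reads at loci with 1 listed model were covered over a median of 11.3% in FMO5-OE and 10.9% in Col-0. Of those models, 3 of 20 in FMO5-OE and 2 of 19 in Col-0 were covered as little, NDB2 itself included. RefSeq has 2 models of NDB2, with 198 and 111 bases not shared with the other. The deposited counts list 1 model, of 2253 bases, and do not give which of its bases the reads covered. The ratio of 0.886 (0.290 to 2.71) rests on that stretch, and no level of the gene is read from it. NDB4, another external enzyme, had 1 read in FMO5-OE and 3 in Col-0. Summed over the 4 genes the dehydrogenases stood at 181 CPM in FMO5-OE and 195 in Col-0, a ratio of 0.933 (0.879 to 0.989). With uncorrected totals, which shift all loci alike, the ratio was 0.997.

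UPOX, a mitochondrial protein of unknown function used as a marker of oxidative stress, showed no difference that could be detected. It had 28 reads in FMO5-OE and 24 in Col-0, or 2.22 and 2.15 CPM, a ratio of 1.03 (0.578 to 1.86). Its model of 536 bases at chr2:9254378-9255743 was covered over 86.0% in FMO5-OE and 75% in Col-0. Per length it lay below NDA2, at 4.28 RPKM in FMO5-OE and 3.87 in Col-0 against 6.09 and 5.14 for NDA2, and above AOX1D at 1.29 and 2.07.

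**Figure D3:**
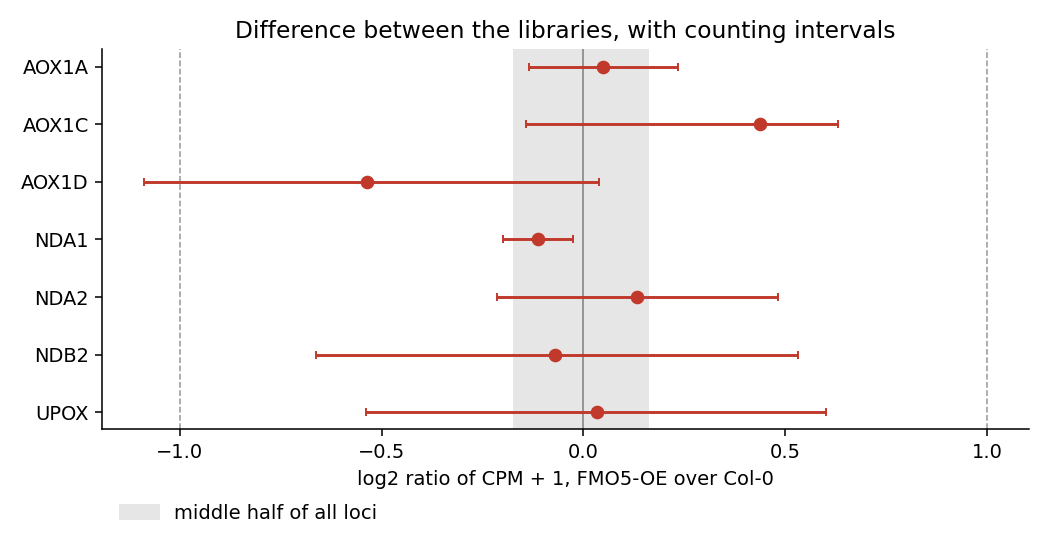
Log2 ratio of CPM + 1, FMO5-OE over Col-0 (points), with 95% counting intervals (horizontal lines) for the 7 genes with more than 3 reads in a library. The grey band is the interquartile range of 13019 nuclear loci and dashed lines mark the 2-fold rule. The rule applies only to AOX1A, NDA1 and NDA2, which reached 5 CPM, and their points lie between the dashed lines. AOX1C and NDB2, under 1 CPM in both libraries, could not reach the lines once 1 CPM was added. Of the 7 points AOX1D is lowest at -0.54 and AOX1C highest at 0.44, and only the interval of NDA1 leaves out 0.

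The other genes of the pathway had like ratios. NDB1, the external NADPH dehydrogenase, had 514 reads in FMO5-OE and 436 in Col-0, a ratio of 1.04 (0.918 to 1.19). NDC1, found in chloroplasts as well as mitochondria, had 589 and 549 reads, with a ratio of 0.951 (0.845 to 1.07). PTOX, the plastid relative of alternative oxidase, had 528 and 425 reads and a ratio of 1.1 (0.967 to 1.25). NDB3 had 2 and 1. The 3 measured loci thus had intervals that span 1, and their levels per length, 19.1 to 30.1 RPKM in the 2 libraries, lay beside that of AOX1A.

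Among the uncoupling proteins and dicarboxylate carriers of the inner membrane, 1 of the 4 loci at 5 CPM or more was apart by the 2-fold rule, against 1.08% of all loci. The dicarboxylate carrier DIC2 was 2.50-fold higher in FMO5-OE (2.17 to 2.88), with 769 reads against 273 in Col-0, or 60.9 and 24.4 CPM. Its log2 ratio of 1.29 was larger in size than that of 99.6% of loci at 5 CPM or more. Its relative DIC1 had 33.3 and 29.7 CPM, a ratio of 1.12 (0.968 to 1.3), and DIC3 had 3 reads in each library. Uncoupling protein UCP1 had a ratio of 1.1 (1.01 to 1.20) and UCP3 of 0.907 (0.706 to 1.16). UCP2, under 5 CPM, had 0.700 (0.331 to 1.45) on 15 and 19 reads. Its most-read model was covered over only 10.3% in FMO5-OE and 15.9% in Col-0. The median log2 ratio of the 5 loci at 1 CPM or more was 0.13. For the 4 at 5 CPM or more it was 0.15, against -0.01 for all nuclear loci at 5 CPM or more.

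Known targets of mitochondrial stress signalling other than the 10 genes did not share a direction. Of 13 loci 11 were measured at 1 CPM or more, and 6 lay above 0 and 5 below. Of the 10 at 5 CPM or more, 0 were apart by the 2-fold rule, against 1.08% of all loci. AT5G09570, too low for that rule, had 7 reads in FMO5-OE and 14 in Col-0, a ratio of 0.443 (0.151 to 1.17). The median of the 11 log2 ratios was 0.10. OM66, an AAA ATPase of the outer mitochondrial membrane, had 222 reads in FMO5-OE and 133 in Col-0, a ratio of 1.48 (1.19 to 1.85). The HSP20-like chaperone AT5G51440 lay on the other side, with 46 and 61 reads and a ratio of 0.668 (0.446 to 0.996). MGE1, a co-chaperone of mitochondrial HSP70, had a ratio of 0.755 (0.608 to 0.936) and the methyltransferase AT2G41380 1.23 (1.07 to 1.42).

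Of the 13 loci listed as regulators, 7 reached 5 CPM, and 1 of these, WRKY40, was apart by the 2-fold rule, against 1.08% of all loci. WRKY40, known as a repressor of mitochondrial stress genes, had 330 reads in FMO5-OE and 61 in Col-0, or 26.2 and 5.46 CPM, a ratio of 4.79 (3.64 to 6.41). ANAC017 had 77.7 and 76.2 CPM, a ratio of 1.02 (0.930 to 1.12), ANAC053 1.08 (0.944 to 1.23) and ANAC078 1.06 (0.964 to 1.16). ANAC013 had 3 reads in FMO5-OE and 0 in Col-0, and ANAC016 had 0 and 1. The kinase CDKE1 stood at a ratio of 1.18 (1.03 to 1.35), SRO1 at 1.09 (0.982 to 1.21) and MYB29, a glucosinolate regulator that also affects AOX1A, at 0.924 (0.836 to 1.02). RCD1, which binds ANAC013 and ANAC017, had 34 and 51 reads over 3.80% and 3.83% of its model, a ratio of 0.591 (0.371 to 0.930) on a short stretch. WRKY15, also covered over a short stretch, had a ratio of 0.978 (0.573 to 1.68), WRKY63 had 2 and 5 reads, and ABI4 is listed in neither library. The median log2 ratio of the 9 at 1 CPM or more was 0.08, and their values lie beside a WRKY40 difference whose part in the level of AOX1A was not tested.

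**Figure D4:**
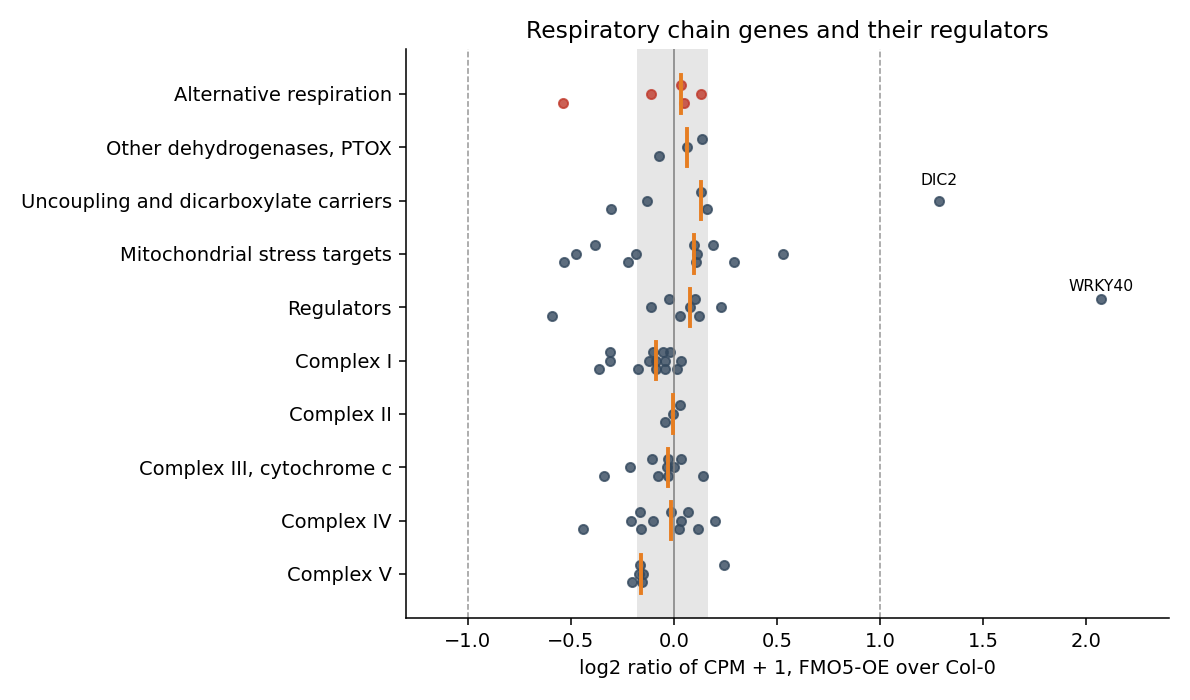
Log2 ratio of CPM + 1, FMO5-OE over Col-0, of each locus at 1 CPM or more (points) by gene list. Orange lines are medians, dashed lines the 2-fold rule and the grey band the interquartile range of nuclear loci at 5 CPM or more. DIC2 at 1.29 and WRKY40 at 2.07 are the loci past the dashed lines, and the alternative respiration genes spread from -0.54 to 0.13.

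The cytochrome pathway was set beside the alternative one. The list held 46 nuclear loci for subunits of complexes I to V, cytochrome c and the complex IV assembly factors COX11 and COX17. Of these 44 were measured, 12 lay above 0 and 32 below, and the median log2 ratio was -0.06. Of the 40 at 5 CPM or more, 0 were apart by the 2-fold rule, against 1.08% of all loci. With uncorrected totals the split of the 44 turned to 25 above and 19 below, and their median to 0.03. The same scaling moved the median of all loci from -0.01 to 0.08. The list median lay below that of all loci in both scalings, and no direction is read from the split. In the main scaling 10 of the 40 at 5 CPM or more lay above 0 and 30 below. Among all nuclear loci at 5 CPM or more 47.8% lay above 0, or 6219 of 13019. The median was -0.09 for complex I, -0.004 for complex II, -0.03 for complex III with cytochrome c, -0.01 for complex IV and -0.16 for complex V. With uncorrected totals only complex V stayed below 0, at -0.07.

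Single loci of these complexes differed by small amounts. In complex I the subunit AT5G11770 had a ratio of 0.806 (0.768 to 0.846) and the subunit EMB1467, covered over 8.77% in FMO5-OE and 6.90% in Col-0, 0.789 (0.600 to 1.03). In complex II SDH1-1 had 1.02 (0.969 to 1.08) and SDH2-2 0.969 (0.857 to 1.1). The iron-sulfur subunit AT5G13430 of complex III stood at 0.790 (0.737 to 0.845) and the processing peptidase subunit MPPBETA, covered over 4.47% and 4.43%, at 0.853 (0.680 to 1.07). For complex IV the copper chaperone COX17 had 0.705 (0.508 to 0.976) and the oxidase subunit AT4G37830 0.862 (0.730 to 1.02). In complex V the ATP synthase gamma subunit had 0.870 (0.842 to 0.899). The delta subunit had 1.19 (1.08 to 1.31), with reads over 27.6% of its model in FMO5-OE and 28.2% in Col-0. All 4 complex V loci covered over 50% or more lay below 0.

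Per length, NDA1 lay within the range of complex I subunits and AOX1A below the median of complex IV. NDA1 had 98.6 RPKM in FMO5-OE and 99.7 in Col-0. Complex I loci covered over 50% or more in both libraries, 10 of 14, had a median of 132 RPKM in FMO5-OE and 131 in Col-0 and ranged from 60.1 to 244 and from 58.4 to 284. AOX1A had 27.5 RPKM in FMO5-OE and 24.8 in Col-0. The 7 complex IV loci covered that far had medians of 65.6 and 64.7 RPKM and ranged from 10.5 to 82.7 and from 14 to 78.1. The cover limit was chosen after the values were seen, since some loci had reads over a short part of their model. Without it the medians were 96.1 and 93.1 RPKM for complex I and 40.8 and 39 for complex IV.

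**Figure D5:**
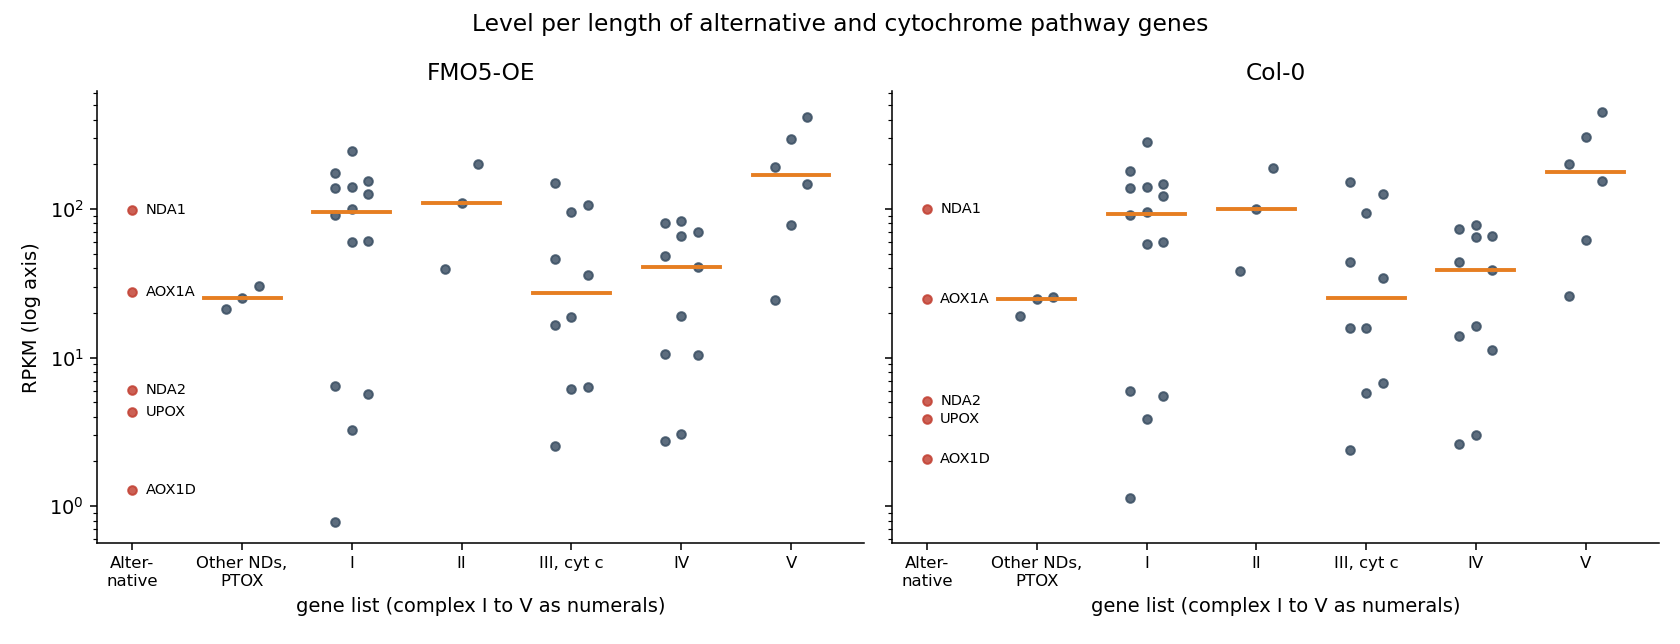
Level per length in RPKM (log axis) of loci at 1 CPM or more in FMO5-OE (left) and Col-0 (right), for the alternative respiration genes (red, named), the other dehydrogenases with PTOX, and complexes I to V, with list medians (orange lines). NDA1 lies among the complex I loci in both libraries, and the low points of complexes I, III and IV include loci with reads over a short part of their model.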

How the data were processed

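The deposited tables hold whole-number counts of unique reads per transcript model, with model length, percent covered and RPKM, per the file headers. Reads were placed on TAIR10 (build named in the submitters' processing notes). For the aligner, counter and strand setting: not given in the sources used here. Recomputing RPKM from count, length and total returned 100% of the deposited values within rounding, and single reads covered 49 bases. The percent column of the deposited tables was read as it stands.

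Counts were summed over the models of a locus, with absent models as 0, and scaled to CPM with TMM factors from edgeR 4.0.16, 1.03 for FMO5-OE and 0.967 for Col-0. A read was worth 0.0792 CPM in FMO5-OE and 0.0894 in Col-0. Log2 ratios are of CPM + 1, which understates the difference of low genes. Ratios without log are of CPM, with exact Clopper-Pearson intervals of the 2 counts. RPKM use the deposited totals. DESeq2 1.42.0 size factors, uncorrected totals, equal nuclear totals, other pseudocounts and minimums were tried. Intervals came from scipy 1.17.1, tables from pandas 2.3.3 with numpy 2.4.6 under Python 3.11.15, normalization from R 4.3.3 and plots from matplotlib 3.10.9. The ratios and intervals were checked on simulated Poisson counts with known totals. These hold counting error only, so variation between plants or libraries and the scaling were not checked.

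The 10 genes and the lists were chosen with earlier results of these data known. Named are all 10 genes, the regulators and other dehydrogenases, and per list the 2 loci at 5 CPM or more with the largest log2 ratio in size and any locus at least 2-fold apart, with further loci named after their values were seen. Motifs were searched in TAIR10.1, whose nuclear chromosomes are those of TAIR10. No genes of like pattern are named, since 2 libraries give a single ratio.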

Additional observations from a re-analysis of the deposited data

How the results depend on the processing

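No paired analysis was possible because each genotype has a single library. Across 42 recomputed log2 ratios of single genes 39 stayed within the counting interval. Without normalization factors NDA1 stood at -0.017 and with equal nuclear totals at -0.024, and AOX1C reached 1.60 with a pseudocount of 0.1 CPM, on 6 reads against 1. In the same 2 scalings the summed dehydrogenases had ratios of 0.997 and 0.992 and all 10 genes 1.01 and 1.01, since a scaling shifts all genes alike; it put the median of all loci at 0.081 and 0.074. AOX1A ranged from 0.045 to 0.14, NDA2 from 0.098 to 0.22, UPOX from 0.015 to 0.099 and AOX1D from -0.75 to -0.24. Of 90 list medians 88 stayed between the medians of the lower and upper single-locus interval bounds. That range is wide for a list median, so the count does not show that the medians are stable. Complexes I to V together went from -0.064 to 0.028 with uncorrected totals and still counted as within it. Complex V moved to -0.065 and -0.072 in those 2 scalings. Loci at least 2-fold apart numbered 96 higher and 45 lower, 42 and 17 with a pseudocount of 5 CPM, and 56 and 21 at a minimum of 20 CPM, since a larger pseudocount shrinks ratios and a higher minimum tests fewer loci. They numbered 136 and 31 with uncorrected totals, 132 and 33 with equal nuclear totals, 140 and 57 with a pseudocount of 0.1 CPM and 131 and 59 with no minimum. A minimum of 5 CPM stood for 63.1 reads in FMO5-OE and 55.9 in Col-0, so depth limited AOX1B, AOX1C, AOX1D, AOX2, NDB4 and UPOX, and NDB2 had reads over a short stretch of its model.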
